A study of Homo sapiens with 30 samples.

Results

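The regions bound by TET1 and by TET2 in cells that had received no auxin were set against each other. The members are all regions of 2 peak lists from chromatin immunoprecipitation with sequencing (ChIP-seq), one for a TET1 antibody and one for a TET2 antibody. Rows of 1 list that shared 1 bp or more were joined, which left 16246 TET1 regions and 1326 TET2 regions, 17572 of the 70565 regions in the 8 lists of the series. The cells were HEK293T, an established human embryonic kidney line, with an edited CTCF gene. They had been transfected with plasmids for ScFv-miniIAA7-mEGFP and AtAFB2-mCherry, the parts of an auxin-inducible degradation system, and were then harvested from medium without indole-3-acetic acid (IAA) at 72 h. A sample label calls this condition DMSO, while the protocol names just the missing IAA, so "without IAA" is used here, and the edit and both plasmids were present in every group. Each list pools 3 samples of its group (IAA_minus_TET1 and IAA_minus_TET2). There is therefore no value per sample and no error between cultures, and none of the differences below was tested across samples.

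TET1 and TET2 are paralogous dioxygenases that oxidise the methyl group of methylated cytosine in DNA, a first step of DNA demethylation. TET1 carries a CXXC zinc-finger domain that binds CpG-rich DNA. TET2 lacks this domain. CTCF, the zinc-finger protein at the base of many chromatin loops, and MBD3, which belongs to the NuRD chromatin remodelling complex, were profiled in the same cells.

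The fold enrichment of a region and its −log10 q are the authors' values from their peak caller. They were used to rank regions within a list and never to compare levels between lists. A percentile of 0 is the weakest and 100 the strongest region of a list. Read depth is unknown for both lists. The TET1 list is the longer one, so the share of the TET2 list found in it is the larger share by construction. Intervals in parentheses are Wilson 95% intervals for shares and exact order-statistic 95% intervals for medians. They cover counting error over regions, which are positions and not replicates.

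TET1 and TET2 met at few places. Of the 16246 TET1 regions, 452 shared a base with a TET2 region, which is 2.78% (2.54% to 3.05%). Of the 1326 TET2 regions, 455 shared a base with a TET1 region, or 34.3% (31.8% to 36.9%). The remaining 15794 TET1 regions and 871 TET2 regions are called TET1-only and TET2-only. The 455 overlapping pairs were nearly all one to one: 2 TET1 regions touched several TET2 regions, and no TET2 region touched several TET1 regions. Equal numbers of regions, taken as the 1326 of highest −log10 q from each list, lowered the share of TET2 regions with TET1 to 4.68% (3.66% to 5.95%). The shared TET2 regions thus mostly met TET1 regions below the top of the TET1 list.

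The shared regions came mostly from the weak end of the TET1 list. Their median percentile by TET1 fold was 13.9 (12.8 to 17.2), against 50.9 (50.1 to 51.7) for TET1-only regions. The median fold was 4.55 at shared and 7.42 at TET1-only regions. When the list was divided into 10 bins of about equal size by fold, 182 of the 452 shared regions fell in the weakest bin, where 11.2% (9.79% to 12.9%) carried TET2. The share dropped to 0.615% (0.334% to 1.13%) in bin 7 and was 1.73% (1.20% to 2.48%) in the strongest bin. This drop was seen at CTCF, as given below by site type. Away from CTCF no such drop was seen up to bin 5, and each stronger bin held 11 regions or fewer there. Ranking by −log10 q gave 8.24% in the weakest bin, 0.80% in bin 6 and 3.82% (2.99% to 4.86%) in the strongest. Of the 100 TET1 regions of highest fold on chromosomes 1 to 22 and X, 8 carried TET2, against 2.78% of the whole list. All 100 carried CTCF and 88 carried MBD3, against 91.1% and 23.2% of the whole list. TET2 was called at 9 of the 123 TET1 regions enriched 20-fold or more, or 7.32% (3.90% to 13.3%). This very top was thus richer in TET2 than the list as a whole. The 3640 regions enriched 10-fold or more were poorer in it, at 1.29% (0.972% to 1.71%).

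Seen from TET2, strength by fold did not separate the classes as far. The median percentile by TET2 fold was 53.0 (48.3 to 58.1) at shared and 48.3 (45.6 to 51.8) at TET2-only regions, and these intervals overlap. By −log10 q the medians were 62.9 (57.9 to 67.2) and 44.0 (39.9 to 47.0), which do not. The direction depended on the threshold: with −log10 q of at least 5 in every list the shared regions stood below the TET2-only regions by fold (difference in median percentile -30.3), against 4.75 points above them in the whole list. The share of TET2 regions with TET1 was 60.5% (51.8% to 68.5%) in the weakest bin by fold. It was 21.8% (15.6% to 29.6%) in bin 3 and reached 41.2% (33.2% to 49.8%) in the strongest. By −log10 q it was 21.4% (15.4% to 28.9%) in the weakest bin and 63.2% (54.7% to 70.9%) in the strongest. The 63 pairs with fold under 3 in both lists, described below, had a median TET2 percentile of 2.45 by fold and 95.1 by −log10 q. They therefore weighed on the weakest bin by fold and on the strongest by −log10 q. Their part in these shares and in the change of direction was not computed. In the shared pairs the TET2 region stood at the higher percentile in 371 of 455. A site near the bottom of both lists can get the higher percentile in the shorter TET2 list by list length alone. The low-fold pairs, for example, had a median percentile by fold of 0.249 in the TET1 list and 2.45 in the TET2 list. The strongest bin held 28 shared TET1 and 54 shared TET2 regions, and 3 pairs were in it in both lists. The weakest bin held 182 and 78, and 70 pairs were in it in both lists. These 70 include the 63 low-fold pairs, since a fold under 3 falls in the weakest bin of either list.

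**Figure D1:**
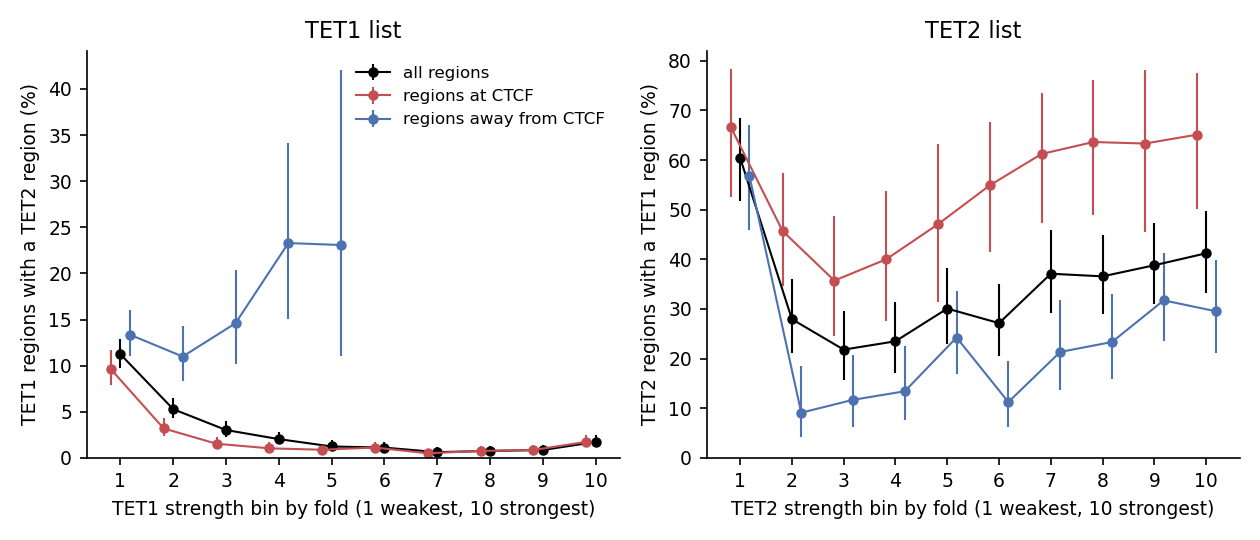
Share of TET1 regions with a TET2 region (left) and of TET2 regions with a TET1 region (right), in %, over 10 bins of strength by fold within each list; points are shares, bars are Wilson 95% intervals, and subsets with under 20 regions in a bin are left out. At CTCF the TET1 curve falls from 9.61% in the weakest bin to 1.73% in the strongest, and the TET2 curve at CTCF lies above the one away from CTCF in every bin. Away from CTCF the TET1 curve runs from 13.4% in the weakest bin to 23.1% in bin 5, its last point.

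Most of the 10 strongest TET2 regions carried none of the other proteins, but this did not extend down the list. Of the 10 TET2 regions of highest fold on chromosomes 1 to 22 and X, 1 carried TET1, 1 carried CTCF and 0 carried MBD3, and 8 carried none of them. In the top 50, 22 carried TET1, 18 carried CTCF and 21 carried none. The whole list had 34.3% with TET1 and 35.8% with CTCF. The 6 TET2-only regions of highest fold had neither CTCF nor MBD3, as had 57.7% of all TET2-only regions. The first lay at chr2:44588911-44589344 with 43.0-fold enrichment and a −log10 q of 385, 117267 bp from the nearest TET1 region. The second, at chr1:228674573-228675064, had 39.0-fold enrichment and the highest −log10 q of the list, 551, with TET1 13611 bp away. Lower in rank came chr22:50050532-50050814 at 28.0-fold, chr2:25895611-25895956 at 23.9-fold, chr17:21002264-21002857 at 23.6-fold and chr4:109571413-109571919 at 23.1-fold. Their gaps to TET1 were 24100, 7744, 269 and 136836 bp, so the region on chromosome 17 missed TET1 narrowly while the others were clear of it. These coordinates, like all others here, are in hg19 and count from 1. No gene is named at them because the annotation used here is of another build.

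All 6 TET1-only regions of highest fold carried CTCF, as did 92.1% of all TET1-only regions, and 3 of the 6 also carried MBD3. They lay at chr17:17875591-17876396 (40.8-fold), chr17:45973080-45973665 (40.3-fold), chr1:147553515-147553862 (38.1-fold), chrX:10087496-10087884 (31.9-fold), chr9:130879921-130880208 (31.1-fold) and chr10:5931872-5932204 (30.1-fold). The nearest TET2 region was 341901 bp or more away from each of them. The median gap of all TET1-only regions to TET2 was 574269 bp, and 2 of the 6 gaps were below it.

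The shared pairs of highest TET1 fold were spread widely over the TET2 list. The pair of highest TET1 fold lay on chromosome 12, with TET1 at chr12:58299127-58299450 and TET2 at chr12:58299194-58299414, wholly inside it. It ranked 4 of 16246 by TET1 fold (32.9-fold) and 683 of 1326 by TET2 fold (4.55-fold), with summits 47 bp apart and both CTCF and MBD3. The next 5 by TET1 fold lay on chromosomes 1, 17, 14, 19 and 1, all with CTCF, at 27.0-, 24.4-, 23.1-, 21.9- and 21.6-fold for TET1. Their TET2 fold was 5.05, 6.54, 3.48, 4.84 and 5.06, and their TET2 ranks ran from 172 to 1114. Among these, the pair on chromosome 17, TET1 at chr17:2148132-2148378 and TET2 at chr17:2148137-2148285, had the lowest sum of ranks of all pairs, 201, with rank 29 in the TET1 list and 172 in the TET2 list. The pairs of next lowest rank sum, 471 and 524, both lay on chromosome 1, at TET1 regions chr1:154244716-154245097 and chr1:154955444-154955919.

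Ordered by TET2 fold, the picture turned around. The highest TET2 region of all, chr2:174219127-174219618 at 45.3-fold, was shared, but with a weak TET1 region, chr2:174219263-174219409, that had 3.78-fold enrichment, a −log10 q of 1.77 and rank 15246 of 16246. It carried neither CTCF nor MBD3, and the summits were 129 bp apart. The next 5 pairs by TET2 fold all carried CTCF. They had a TET2 fold of 17.8, 16.2, 14.997, 14.6 and 12.97, on chromosomes 3, 10, 3, 7 and 9, and TET1 ranks between 6229 and 15656. No pair in this group was near the top of the TET1 list.

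Across the 455 pairs, TET1 and TET2 fold had a Spearman correlation of 0.444, which describes these pairs and has no test. It rested on a small group: in the 392 pairs with a fold of at least 3 in one or both lists it was 0.132. In the 63 pairs with a fold under 3 in both lists it was 0.923. The order by TET1 fold was thus only loosely tied to the order by TET2 fold outside the low-fold pairs. All points come from the same pair of pooled lists.

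**Figure D2:**
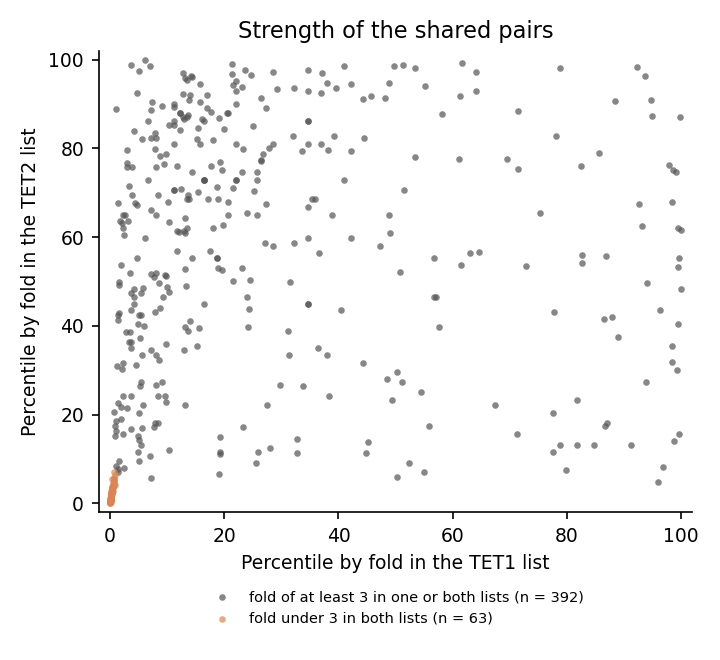
Percentile by fold in the TET1 list (x axis) and in the TET2 list (y axis) for each of the 455 overlapping pairs, each point 1 pair. The 63 pairs with fold under 3 in both lists sit in the lower left corner, and the other 392 spread over all TET2 percentiles with most points at low TET1 percentiles.

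Those 63 pairs were picked by their fold, so their low fold percentiles follow from that rule. Their median percentile by fold was 0.249 in the TET1 list and 2.45 in the TET2 list. By −log10 q the median was high, at 88.3 (73.6 to 97.4) and 95.1 (89.4 to 96.3). Not every pair was high by −log10 q, as the lower quartiles were at percentiles 33.5 and 70.2. Of the 63, 16 were on the mitochondrial genome, 6 on an unplaced contig of chromosome 9 and 41 on chromosomes 1 to 22 and X. On the chromosomes many stood in tight blocks: 6 pairs in chr2:92305601-92325262, 6 in chr10:42398539-42532605, 5 in chr11:51579510-51590633, 3 in chr19:27731968-27738617 and 3 in chr1:566097-567440. As background, the blocks on chromosomes 2, 10, 11 and 19 lie next to centromeres. The highest −log10 q in the chromosome 19 block was 290 for TET1 and 307 for TET2. MBD3 was called at 51 of the 63 pairs and CTCF at 21.

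On the mitochondrial genome the TET2 list had 16 regions covering 7755 bp and the TET1 list had 14 covering 9643 bp. All 16 TET2 regions and 13 of the 14 TET1 regions were shared. Fold there ran from 1.20 to 2.26 for TET2 and from 1.30 to 2.18 for TET1. MBD3 had 14 regions there (1.21- to 2.01-fold) and CTCF had 0. These regions count as shared above. Without regions of fold under 3, 30.8% (28.3% to 33.4%) of TET2 regions and 2.35% (2.13% to 2.60%) of TET1 regions were shared.

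The lowest regions of both lists on chromosomes 1 to 22 and X included one and the same site. TET1 at chr1:121484440-121484666 (1.25-fold, rank 16246) overlapped TET2 at chr1:121484442-121484685 (1.21-fold, rank 1325), with CTCF and MBD3. The second lowest TET1 region, chr19:27736245-27736469 at 1.30-fold, was 1726 bp from TET2. The second lowest TET2 region, chr9:66971082-66971348 at 1.25-fold, overlapped TET1.

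The shares of regions with CTCF and MBD3 differed between the classes. In the whole TET1 list CTCF was called at 91.1% and MBD3 at 23.2% of regions. At shared TET1 regions CTCF was called at 57.1% (52.5% to 61.6%), and at TET1-only regions at 92.1% (91.6% to 92.5%). MBD3 went the other way, with 55.1% (50.5% to 59.6%) at shared and 22.3% (21.7% to 22.97%) at TET1-only regions. CTCF without MBD3 was at 27.7% (23.7% to 32.0%) of shared and 71.6% (70.9% to 72.3%) of TET1-only regions. MBD3 without CTCF was found at 116 of 452 shared TET1 regions, or 25.7% (21.9% to 29.9%), and at 1.83% (1.63% to 2.05%) of TET1-only regions. On chromosomes 1 to 22 and X with a fold of at least 3 these shares were 22.4% (18.5% to 26.8%) and 1.79% (1.59% to 2.01%). The CTCF difference varied with TET1 strength. In the weakest bin by fold CTCF was at 88 of 182 shared regions and at 916 of all 1620 regions. In bin 3 it was at 22 of 49 shared and 1439 of all 1624 regions. The part of strength in the difference over the whole list was not tested.

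In the TET2 list CTCF was called at 35.8% and MBD3 at 31.6% of all regions. Both were more frequent where TET1 was also called. CTCF was at 55.6% (51.0% to 60.1%) of shared and 25.5% (22.7% to 28.5%) of TET2-only regions, and MBD3 at 54.3% (49.7% to 58.8%) and 19.7% (17.2% to 22.5%). CTCF and MBD3 together marked 27.5% (23.6% to 31.7%) of shared TET2 regions and 2.99% (2.05% to 4.34%) of TET2-only regions. Most TET2-only regions, 57.7% (54.4% to 61.0%), had neither, against 17.6% (14.4% to 21.3%) of the shared ones.

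**Figure D3:**
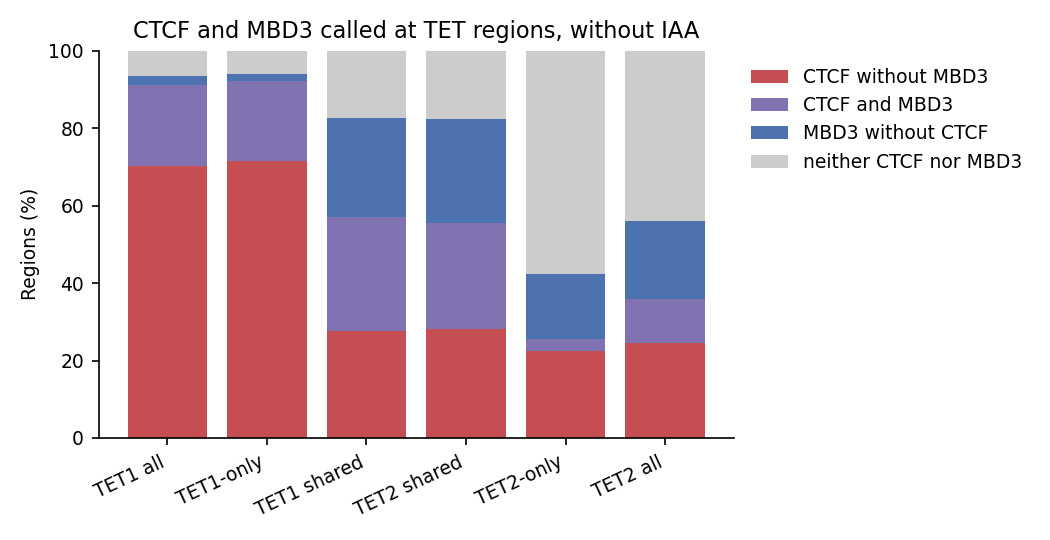
Share of regions (%) with CTCF without MBD3, with both, with MBD3 without CTCF and with neither, for each class of TET1 and TET2 regions and for the whole lists. Both shared classes have MBD3 without CTCF at 25.7% and 26.8%, against 1.83% of TET1-only regions, and 57.7% of TET2-only regions have neither.

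Read by site type, CTCF sites were poor in TET2 for TET1 and rich in TET1 for TET2. A TET1 region carried TET2 in 1.74% (1.54% to 1.97%) of cases at CTCF and in 13.4% (11.7% to 15.2%) away from CTCF. Within the weakest bin of TET1 fold the shares were 9.61% (7.86% to 11.7%) and 13.4% (11.04% to 16.1%), and in bin 3 they were 1.53% (1.01% to 2.304%) and 14.6% (10.2% to 20.4%). At MBD3 sites without CTCF 28.6% (24.5% to 33.2%) of TET1 regions carried TET2, the highest share of the 4 combinations of CTCF and MBD3. A TET2 region carried TET1 in 53.3% (48.8% to 57.7%) of cases at CTCF and in 23.7% (21.0% to 26.7%) away from it. With both CTCF and MBD3 this rose to 82.8% (76.0% to 88.0%), and with neither it was 13.7% (11.2% to 16.8%).

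CTCF regions themselves were sorted by which TET protein they carried. Both were called at 264 of 42925 CTCF regions, TET1 without TET2 at 14482, TET2 without TET1 at 210 and neither at 27969. The median CTCF fold was 28.2 (27.9 to 28.4) with TET1 alone, 8.06 (6.69 to 9.57) with both, 5.17 (4.79 to 5.61) with TET2 alone and 9.41 (9.30 to 9.53) with neither. CTCF regions with TET2 thus had a lower median fold than those with TET1 alone. TET1 was called at 55.7% (51.2% to 60.1%) of CTCF regions with TET2 and at 34.1% (33.7% to 34.6%) of those without. The share was higher with TET2 in all 10 bins of CTCF fold. In the weakest bin it was 45.9% (38.8% to 53.1%) against 6.19% (5.49% to 6.97%), and in the strongest 100% (43 of 43, interval from 91.8%) against 96.7% (96.1% to 97.2%).

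At MBD3 regions the 2 shares were close. TET1 was called at 59.1% (54.3% to 63.7%) of the 418 MBD3 regions with TET2 and at 57.0% (55.7% to 58.2%) of the others. By bins of MBD3 fold the direction changed. In the weakest bin TET1 was at 80.0% (70.0% to 87.3%) of MBD3 regions with TET2 and at 40.2% (36.3% to 44.2%) of those without, and in the strongest at 67.3% (54.1% to 78.2%) and 88.6% (85.8% to 90.9%). The share was higher with TET2 in 3 of the 10 bins.

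Summits of a shared pair lie close together by the pairing rule, since the regions must overlap, so the distances describe the spread within that limit. The median distance between the TET1 and TET2 summits was 47 bp (39 to 56), with quartiles of 14.5 and 108.5 bp. In 236 of the 455 pairs, or 51.9% (47.3% to 56.4%), it was 50 bp or less, in 100 pairs 10 bp or less, and in 45 pairs over 200 bp. Pairs with CTCF in both regions had a median of 60 bp (46 to 70), and pairs with CTCF in neither had 35 bp (26 to 45). Leaving out the pairs with fold under 3 in both lists, these were 62 bp (49 to 73) and 42.5 bp (36 to 54), and the intervals then overlapped. In the low-fold pairs the median was 7 bp (4 to 12). Over all pairs, the median was 6 bp (3 to 10) in the 64 pairs left with −log10 q of at least 10 in every list, and 76 bp (62 to 93) over the 690 overlaps of single rows. At that q limit the shared regions stood below the others by fold, with differences in median percentile of -49.7 for TET1 and -44.3 for TET2. The low-fold pairs had a median −log10 q of 33.2 for TET1 and 21.1 for TET2, so they weigh on the 6 bp.

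**Figure D4:**
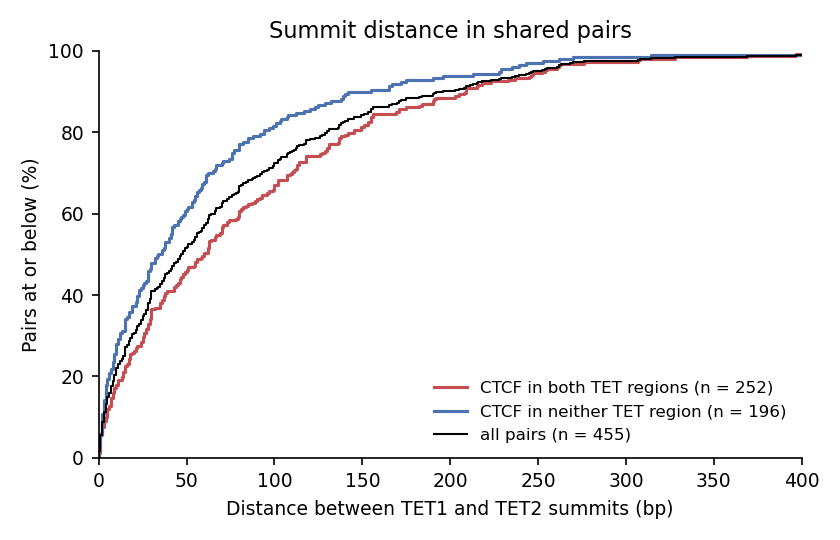
Cumulative share of shared pairs (%) by the distance between TET1 and TET2 summits in bp (the longest distances lie off the axis), for all 455 pairs, for 252 with CTCF in both regions and for 196 with CTCF in neither. The curve for pairs without CTCF rises first, and at 50 bp it has reached 61.2% against 46.0% with CTCF.

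At triple sites TET1 kept closer to CTCF than TET2 did. In 252 pairs both regions overlapped the same CTCF region. There the TET1 summit was a median of 18 bp (14 to 24) from the nearest CTCF summit and the TET2 summit 54 bp (44 to 68). The TET1 summit was the nearer one in 172 of the 252, or 68.3% (62.3% to 73.7%), the TET2 summit in 76, and 4 were equal. TET1-only regions at CTCF were more closely centred, at 7 bp (7 to 7), and TET2-only regions at CTCF were at 74 bp (61 to 86). The median TET1 distance was thus larger at shared than at TET1-only sites. These classes also differed in strength. Over all their regions the median TET1 fold was 4.55 at shared and 7.42 at TET1-only regions. The median CTCF fold was 8.06 at CTCF regions with both TET proteins and 28.2 with TET1 alone. The part of strength in the distances to CTCF was not tested.

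The 3 pairs with the largest summit distance on chromosomes 1 to 22 and X were wide or compound regions. On chromosome 7 a TET1 region of 800 bp, joined from 3 rows at chr7:2393666-2394465, had its summit 646 bp from that of TET2 at chr7:2393623-2393780. On chromosome 14 a TET1 region of 816 bp at chr14:21081491-21082306 (13.7-fold) met TET2 at chr14:21082148-21082417 (8.39-fold) with 618 bp between the summits. On chromosome 1, chr1:236877035-236878276 for TET1 and chr1:236877009-236878325 for TET2 covered nearly the same stretch, with 5 and 4 rows, and the leading summits were 557 bp apart. The widest pair lay near the start of chromosome 5, with TET1 over 1679 bp at chr5:10061-11739 and TET2 over 1518 bp inside it, each joined from 6 rows.

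Shared regions were wider than the others. For TET1 the median width was 234 bp (224 to 249) at shared and 197 bp (196 to 198) at TET1-only regions, although the shared ones were weaker. The shared regions had the larger median in all 10 bins of TET1 fold. In the weakest bin it was 207 bp against 178 bp, and in the strongest 292 bp against 243 bp. For TET2 the medians were 206 bp (199 to 220) and 185 bp (181 to 188), with a larger median at shared regions in 8 of 10 bins of TET2 fold. Wide regions also have more bases with which to overlap, and the part of this in the difference was not tested. Regions joined from several rows made up 8.85% (6.57% to 11.8%) of shared and 0.9497% (0.810% to 1.11%) of TET1-only regions. The overlap itself had a median of 165 bp (160 to 172), which covered a median of 74.1% of the TET1 region and 84.9% of the TET2 region. In 135 pairs the TET2 region lay inside the TET1 region, and in 64 the TET1 region lay inside the TET2 region.

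Spacing was compared between classes of 1 list, since the shorter TET2 list has larger gaps by its length alone. The median gap from a TET1-only region to the next TET1 region was 33195 bp (32061 to 34097), and from a shared one 21026 bp (17418 to 26072). A TET1 neighbour lay within 10 kb of 34.5% (30.3% to 39.0%) of shared and 24.5% (23.8% to 25.1%) of TET1-only regions. On chromosomes 1 to 22 and X with a fold of at least 3 these were 25.8% (21.6% to 30.4%) and 24.3% (23.7% to 25.02%), and the intervals overlapped. In the TET2 list the median gap to the next TET2 region was 273995 bp (219004 to 343513) from shared and 361735 bp (297892 to 422167) from TET2-only regions, and these intervals overlap. A TET2 neighbour within 10 kb was found for 18.7% (15.4% to 22.5%) and 8.84% (7.13% to 10.9%), and with the same filter for 8.399% (6.01% to 11.6%) and 8.63% (6.91% to 10.7%). With that filter the shares within 10 kb were alike within their intervals in both lists.

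TET2-only regions lay about as far from TET1 as TET1 regions lay from each other. Their median gap to the nearest TET1 region was 28170 bp (25389 to 33634), against 32739 bp (31725 to 33642) between TET1 regions. A TET1 region lay within 1 kb of 73 of the 871, or 8.38% (6.72% to 10.4%), within 10 kb of 28.0% (25.1% to 31.1%) and within 100 kb of 82.4% (79.8% to 84.8%). Of the 73 near misses, 26 were at CTCF, or 35.6% (25.6% to 47.1%), against 24.6% (21.7% to 27.7%) of the TET2-only regions farther off. The TET1-only regions were far from TET2, with a median gap of 574269 bp (555655 to 594704), and 91 of the 15794 had TET2 within 1 kb. CTCF was at 67.0% (56.9% to 75.8%) of those 91 and at 92.2% (91.8% to 92.6%) of the rest.

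The lists were spread over the chromosomes in a similar order (Spearman correlation of counts 0.830 over 23 chromosomes, a description), and the intervals of their shares overlapped on 18 of 23 chromosomes. With intervals apart, TET2 had the larger share on 3 chromosomes and the smaller share on 2. Chromosome 4 held 7.10% (5.83% to 8.63%) of TET2 and 4.36% (4.05% to 4.68%) of TET1 regions, chromosome 10 held 7.80% (6.46% to 9.39%) and 5.90% (5.55% to 6.27%), and chromosome 13 held 4.71% (3.68% to 6.004%) and 2.88% (2.64% to 3.15%). TET2 had the smaller share on chromosome 20, at 1.00% (0.588% to 1.71%) against 2.58% (2.35% to 2.84%), and on chromosome X, at 1.54% (1.00% to 2.37%) against 3.18% (2.92% to 3.46%). With −log10 q of at least 5, which left 7 TET2 regions on chromosome 20, the difference there was -1.14 percentage points with an interval that includes 0 (-2.01 to 0.545). TET1 regions away from CTCF leaned the same way on 4 of these 5: they had 6.15% on chromosome 4, 8.83% on 10, 9.54% (8.12% to 11.2%) on 13 and 0.636% (0.335% to 1.20%) on 20. On chromosome X they had 2.76% (2.02% to 3.75%), with an interval that overlapped those of both lists. The MBD3 list also had more than the CTCF list on chromosomes 4, 10 and 13 and less on 20 and X. In that order MBD3 had 6.17%, 8.30%, 4.74%, 1.58% and 2.27%, and CTCF had 5.13%, 4.68%, 2.67%, 2.55% and 3.89%.

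**Figure D5:**
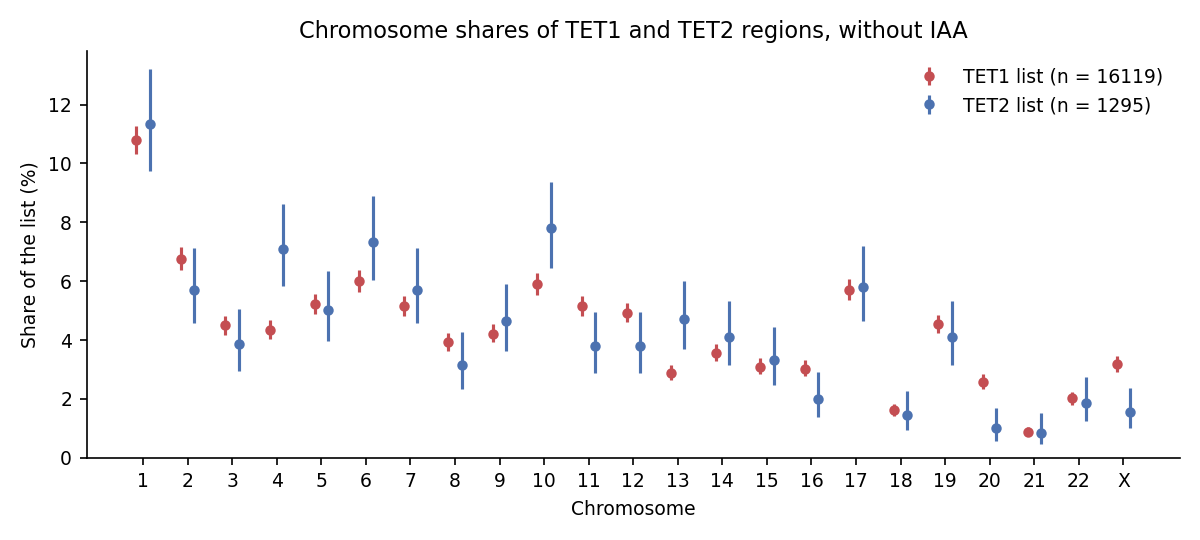
Share of the TET1 list (16119 regions) and of the TET2 list (1295 regions) on each of chromosomes 1 to 22 and X, in %, with Wilson 95% intervals as bars. TET2 stands above TET1 with separate intervals on chromosomes 4, 10 and 13 and below it on 20 and X.

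The share of TET2 regions that met TET1 had wide intervals on single chromosomes. It ran from 9.09% (1 of 11, 1.62% to 37.7%) on chromosome 21 to 41.9% (31.3% to 53.3%) on chromosome 7. Chromosome 4, with its surplus of TET2, had 31.5% (22.9% to 41.6%), close to the 33.1% over chromosomes 1 to 22 and X. Near the chromosome ends the intervals of the classes overlapped. The share within 5 Mb of the lowest or highest listed position was 9.09% (6.72% to 12.2%) for shared, 9.27% (8.83% to 9.74%) for TET1-only and 8.43% (6.76% to 10.5%) for TET2-only regions.

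After 72 h with 0.5 mM IAA, when the CTCF list fell from 42925 to 63 regions, few sites of any class were called again. The TET1 list with IAA held 325 regions, fewer than without, and the TET2 list with IAA held 3022, more than without, so the shares below come from lists that changed length in opposite directions. A TET1 region with IAA overlapped 15 of the 452 shared TET1 regions, or 3.32% (2.02% to 5.40%), and 21 of the 15794 TET1-only regions, or 0.133% (0.0870% to 0.203%). A TET2 region with IAA overlapped 4 of the 455 shared TET2 regions, or 0.879% (0.342% to 2.24%), and 2 of the 871 TET2-only regions, or 0.230% (0.0630% to 0.833%). An MBD3 region with IAA overlapped 13 shared TET1 regions and 1 TET1-only region. A CTCF region with IAA overlapped 9 shared TET1 regions, or 1.99% (1.05% to 3.74%), and 44 TET1-only regions, or 0.279% (0.208% to 0.374%). Shared TET1 regions were thus called again more often than TET1-only regions with TET1, and with MBD3 and CTCF too, so this was not particular to TET1. For TET2 the intervals overlapped. The shared class includes the mitochondrial and other low-fold regions, and these shares were not computed without them.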

How the data were processed

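The deposited peak lists were analysed as given. The authors pooled the 3 samples of each group, per the file names in the labels. Build hg19 and the tools MACS2 2.1.2, Bowtie2 2.3.4, bedtools 2.25.0, SAMtools 1.9 and FastQC 0.11.7 appear in the submitters' processing notes, without their roles. Peak settings, the control and depth were not stated. Fold enrichment, a ratio, and −log10 of the q-value were deposited by the authors.

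A region joined from several rows took its largest fold and largest −log10 q, and its summit from the row of largest −log10 q. Distances between regions are gaps between edges. Joining and overlap were tested on simulated data. Python 3.11.15, pandas 2.3.3, numpy 2.4.6, scipy 1.17.1 and matplotlib 3.10.9 were used.

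No test across samples was possible. The members and lists were chosen with earlier results of these data known. Regions named are, on chromosomes 1 to 22 and X, the 6 of highest fold in each class, the 6 shared pairs of highest TET1 and TET2 fold, the 3 pairs of largest summit distance, lowest rank sum and greatest width, and the 2 lowest of each list. The blocks of low-fold pairs were chosen after their values were seen. No genome or annotation of hg19 was used, so sequences and genes are not analysed here.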

Additional observations from a re-analysis of the deposited data

How the results depend on the processing

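No paired analysis was possible because the pooled lists hold no value per sample, and leaving out single samples was not possible for the same reason. Sequence features and gene position by class were not run. Of 101 alternatives, 44 stayed within the interval of the reported value, 54 moved outside it and 3 reversed. Fold of at least 3 in both TET lists was added after seeing the data. Intervals of differences in medians carry the error of the shared median alone, with the median of the other class held fixed. Where no construction is named, the cause was not tested. Depth is unknown, so an unshared region is one where the other protein was not called.

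The share of TET1 regions with TET2 (2.78%) was 2.01% with 50% overlap of both regions, 2.54% with summits within 200 bp, 1.02% and 0.586% at −log10 q of at least 5 and 10, 0.780% and 2.35% at fold of at least 5 and 3, 3.12% over single rows, 4.45% with equal numbers and 1.97% without regions of all 4 antibodies, which removes shared regions by construction. The share of TET2 regions with TET1 (34.3%) was, in that order without single rows, 24.7%, 31.1%, 31.5%, 40.3%, 19.5%, 30.8%, 4.68% and 26.7%. Equal numbers shorten the TET1 list. The median summit distance (47 bp) was 30 bp with 50% overlap, 38.5 bp with summits within 200 bp, 14 and 6 bp at −log10 q of at least 5 and 10, 76 bp over single rows and 11.5 bp with equal numbers.

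The median TET1 percentile of shared minus TET1-only regions (-37.0) came to -43.9 and -49.7 at these q limits, -28.4 and -32.6 at fold of at least 5 and 3, -48.0 with equal numbers (59 shared regions, interval -48.8 to 0.716, which includes no difference), -32.0 ranked by −log10 q and -38.8 without regions of all 4 antibodies. The TET2 difference (4.75) reversed to -30.3 and -44.3 at −log10 q of at least 5 and 10 and to -44.9 with equal numbers. It was 18.9 ranked by −log10 q and 13.2 at fold of at least 3.

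In percentage points, CTCF at shared minus TET1-only regions (-35.0) was -28.3 with 50% overlap, -53.9 and -58.5 at −log10 q of at least 5 and 10, and -52.7 without regions of all 4 antibodies. CTCF at shared minus TET2-only regions (30.1) was 18.7, 23.8, 16.4 and 12.1 in that order. The 50% rule was applied there to the overlap with CTCF as well, so these moves do not come from the sharing rule alone. MBD3 at shared minus TET1-only regions (32.8) reached 40.3 and 59.9 at the same q limits, 37.8 at fold of at least 5, 23.5 with equal numbers and 13.8 without regions of all 4 antibodies. MBD3 at shared minus TET2-only regions (34.5) was 44.7, 64.5, 58.2 and 17.6 at these settings, leaving out fold. Leaving out regions of all 4 antibodies removes shared regions with both CTCF and MBD3. It therefore lowers the CTCF and MBD3 shares at shared regions by construction. Chromosome 4 held 4.802 points more of the TET2 than of the TET1 list at −log10 q of at least 5 (2.75 in the whole lists). Over single rows, shared minus unshared width was 55 bp for TET1 (37 joined) and 36 bp for TET2 (21 joined), and spacing was -18806 bp (-12169 joined) and -167649 bp (-87740 joined), since rows of one region then count as neighbours. On chromosomes 1 to 22 and X the TET2 spacing difference was -42565 bp. Its interval, from the error of the shared median alone, includes 0 (-114132 to 29782). The chromosome 20 difference (-1.58 points) was -1.14 at −log10 q of at least 5, with an interval that includes 0.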
